A study of Arabidopsis thaliana with 6 samples.

Results

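The WRKY transcription factors of rosette leaves were described in wild type (WT) and the atrap mutant of the model plant Arabidopsis thaliana. The genes were taken by symbol, as the probe sets paired with exactly 1 gene whose name is WRKY followed by a number. This gave 6 genes, WRKY53, WRKY6, WRKY42, WRKY47, WRKY22 and WRKY20, each with 1 probe set, among 13356 genes with a probe set of their own. Over all, 22746 probe sets were tested. The gene table of assembly TAIR10.1 lists 67 such symbols, and the other 61 were not analysed here, so the family is covered only in small part. Each genotype had 3 Affymetrix arrays, which the labels call biological replicates, from plants 3 weeks old that grew untreated at 23 °C in days of 12 h light followed by 12 h dark. The allele, the background line and the locus of the mutation are not given in the labels. The gene table gives ATRAP as a synonym of RAP (AT2G31890), known as a plastid protein of ribosomal RNA maturation and as a negative regulator of defence.

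WRKY proteins are plant transcription factors that carry a conserved DNA-binding domain with a zinc finger and bind a short promoter element called the W-box. Many of their genes have W-boxes themselves, and transcripts of several are induced within minutes to hours by pathogens, wounding or salicylic acid. In leaves the family is best known for immunity and for the onset of senescence, the ordered breakdown of ageing leaves.

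The values are log2 levels per probe set made by RMA, a method that corrects background, equalises the arrays and summarises probes. They ran from 3.12 to 15.01, with array medians between 6.50 and 6.57. Levels of different probe sets cannot be set against each other, because probes differ in affinity. The number of arrays limits the precision, since arrays have no read depth. RAP read 7.87, 7.44 and 7.76 in WT and 6.72, 6.35 and 6.51 in atrap, a log2 difference of -1.16 ± 0.14 (± standard error, limma, adjusted p = 0.00741). RCA, the Rubisco activase of leaf mesophyll, read 14.85 to 14.94 over all 6 arrays. That is close to the highest value of all, 15.01, so a difference might not show there. The 24 control probe sets named for poly-A spike-ins are designed for added RNA that should not differ between leaves. Whether such RNA was added here was not checked. They averaged 6.51 ± 0.08 in atrap and 6.90 ± 0.16 in WT (log2 mean ± SD of 3 arrays, two-sided exact permutation p = 0.1). That is the smallest p that 3 arrays against 3 allow.

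WRKY53 and WRKY47 fell in atrap, and the other 4 WRKY genes did not pass an adjusted p of 0.05. The calls, 2 of 6 lower and 0 higher, stand beside 6.41% of all probe sets called lower and 6.7% called higher (13.1% in either direction). The groups did not overlap for the same 2 genes, beside 16.5% of all probe sets with every atrap array below every WT array. The log2 difference was below 0 in 5 of the 6 genes, beside 44.3% of all probe sets. The median log2 difference of the 6 was -0.42, beside 0.03 over all probe sets. Without WT replicate 3 that median was -0.18, and without WT replicate 2 or atrap replicate 1 the calls among the 6 were 0 by limma (2 at an unadjusted p of 0.05 in each). They were 1 without atrap replicate 3 and 3 without WT replicate 1. With 6 genes, these shares describe the members and are no test of the family. In whole leaves, fewer cells of a type and less RNA per cell cannot be told apart.

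**Figure D1:**
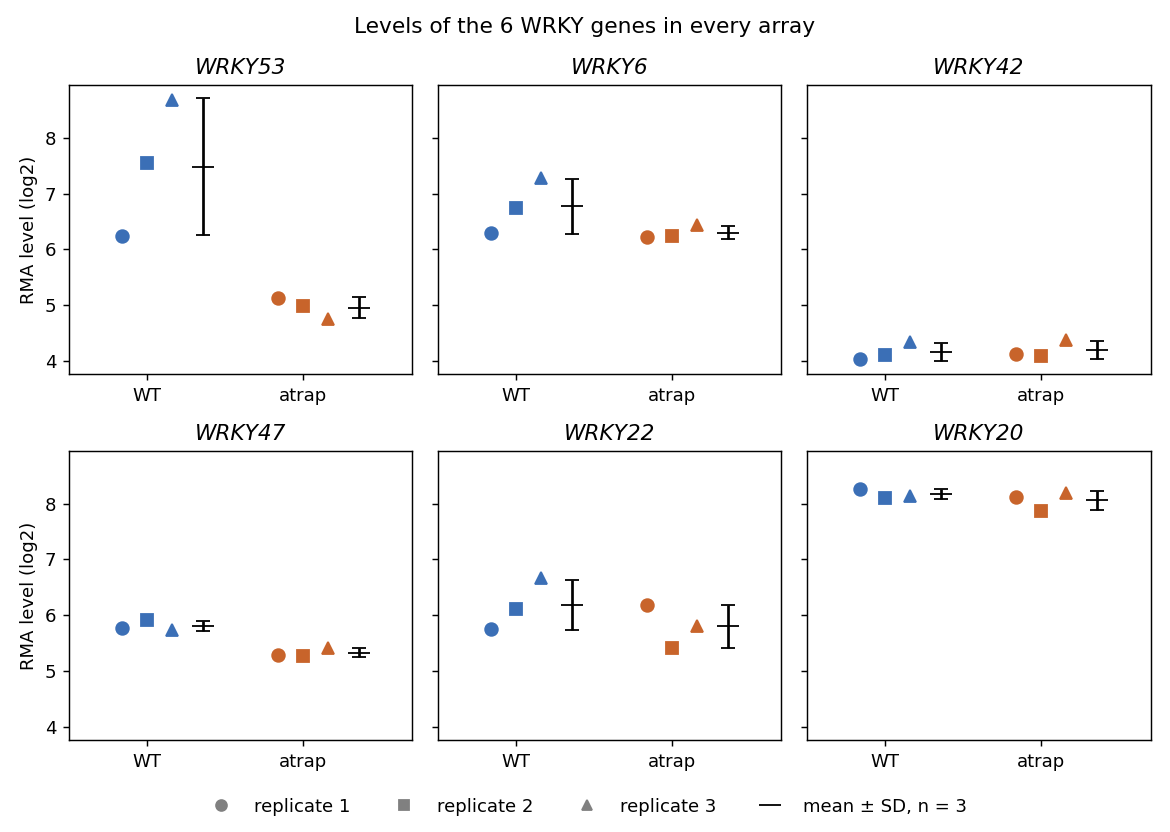
RMA levels (log2) of the 6 WRKY genes, with 1 point per array, the symbol showing the replicate number and the bar the mean ± SD of 3 arrays. In the WRKY53 panel the WT points run from 6.23 to 8.69 while the atrap points lie between 4.74 and 5.12; heights in different panels come from different probes and are not comparable.

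WRKY53 (AT4G23810) encodes a group III WRKY factor that promotes leaf senescence and contributes to basal resistance against bacteria. Its level was 6.23, 7.54 and 8.69 in the 3 WT arrays and 5.12, 4.99 and 4.74 in the 3 atrap arrays. Every atrap array lay below every WT array, with 1.11 log2 units between the lowest WT and the highest atrap value. The WT arrays differed among themselves about as much as the genotypes did, with a WT range of 2.46 against 0.37 in atrap.

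The mean of WRKY53 was 7.49 ± 1.23 in WT and 4.95 ± 0.19 in atrap (SD, n = 3 each). The log2 difference was -2.54 with a standard error of 0.54 and a 95% interval of -3.79 to -1.28 (limma, adjusted p = 0.0263). On a linear scale this was 5.80-fold lower, with an interval of 2.43-fold to 13.9-fold. Of 22746 probe sets 13, WRKY53 included, had a log2 difference this low or lower. A call lower in atrap with a log2 difference of -1 or below was reached by 1.08% of probe sets.

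The size of the fall rested on which WT array served as the reference. The atrap mean differed by -1.28 log2 units from WT replicate 1, by -2.59 from WT replicate 2 and by -3.74 from WT replicate 3. These distances correspond to falls of 2.43-fold, 6.03-fold and 13.3-fold. Without WT replicate 3 the log2 difference was -1.94 (limma, adjusted p = 0.0361), and without WT replicate 1 it was -3.16 (limma, adjusted p = 0.00425). The call was lost without WT replicate 2, atrap replicate 1 or atrap replicate 3, at adjusted p values of 0.0977, 0.0871 and 0.0888 by limma, while the difference stayed between -2.62 and -2.43. It was also lost with the unmoderated test, which takes the variance of each probe set alone (adjusted p = 0.145).

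WRKY6, WRKY42 and WRKY47 belong to group IIb of the family and gave different results. WRKY6 (AT1G62300), a factor of senescence and pathogen defence that also represses the phosphate exporter gene PHO1, read 6.30, 6.73 and 7.28 in WT. In atrap it read 6.22, 6.24 and 6.43. The atrap arrays lay at the level of WT replicate 1, so the groups overlapped, and WT replicate 3 was the highest of the 6 arrays.

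The log2 difference of WRKY6 was -0.47 ± 0.23 (± standard error, n = 3 per group), with a 95% interval of -1.0 to 0.06 (limma, adjusted p = 0.214). This gene passed without WT replicate 1, at a log2 difference of -0.71 (limma, adjusted p = 0.0390). Without WT replicate 3 the difference was -0.22.

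WRKY47 (AT4G01720), reported in Arabidopsis to act on cell wall genes and aluminium tolerance, read 5.78, 5.91 and 5.73 in WT and 5.29, 5.26 and 5.42 in atrap. All atrap arrays lay below all WT arrays, by a gap of 0.31. The log2 difference was -0.48 ± 0.08 (± standard error, n = 3 per group), with a 95% interval of -0.68 to -0.28 (limma, adjusted p = 0.0164), or 1.39-fold lower. The estimate for WRKY47 was nearly that of WRKY6, but its replicates were much closer together, at SDs of 0.09 in WT and 0.08 in atrap against 0.49 and 0.11 for WRKY6. Against each WT array in turn, the difference of the atrap mean of WRKY47 was -0.58 to -0.40.

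The fall of WRKY47 was close in size to the shift of the poly-A spike-in controls, -0.38 on the same scale, whose part in it was not tested. Centring each array on its median left the log2 difference of WRKY47 at -0.45 (limma, adjusted p = 0.0188). The array medians lay between 6.50 and 6.57, so this centring could not remove a shift as large as that of the controls. The call was lost without WT replicate 2 or atrap replicate 1, at adjusted p values of 0.0677 and 0.0772 by limma, and with the unmoderated test at 0.0766.

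WRKY42 (AT4G04450), which takes part in phosphate transport and in senescence, read 4.03, 4.10 and 4.34 in WT and 4.11, 4.08 and 4.38 in atrap. The groups overlapped, with WT replicate 1 the lowest and atrap replicate 3 the highest array. The log2 difference was 0.04 with a 95% interval of -0.24 to 0.31 (limma, adjusted p = 0.875), and its sign changed under a further quantile normalization and without WT replicate 1 or atrap replicate 3. Its mean over all arrays was below the 30th percentile of probe set means, a range in which RMA compresses differences, so this value does not show an unchanged transcript.

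**Figure D2:**
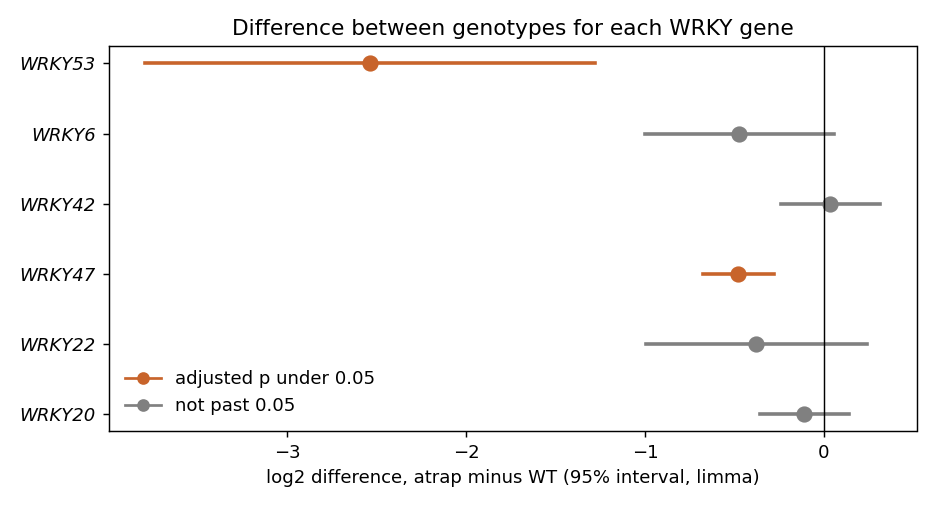
Log2 difference between atrap and WT for each WRKY gene, as a point with its 95% interval from limma (n = 3 per group). The intervals of WRKY53 (-3.79 to -1.28) and WRKY47 (-0.68 to -0.28) lie below 0 and those of the other 4 genes include 0.

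WRKY22 (AT4G01250), a group IIe factor downstream of the MAP kinase cascade that answers bacterial flagellin, read 5.76, 6.12 and 6.66 in WT. In atrap it read 6.19, 5.41 and 5.80. The groups overlapped, with atrap replicate 1 above 2 of the WT arrays. The log2 difference was -0.38 with a 95% interval of -1.0 to 0.24 (limma, adjusted p = 0.391).

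WRKY20 (AT4G26640), a group I factor, read 8.27, 8.10 and 8.14 in WT and 8.12, 7.87 and 8.20 in atrap. The groups overlapped, and atrap replicate 2 was the lowest array. The log2 difference was -0.11 with a 95% interval of -0.36 to 0.14 (limma, adjusted p = 0.547). It was -0.012 without atrap replicate 2 and -0.18 without atrap replicate 3. The interval with all arrays reaches 1.28-fold less transcript in atrap.

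A further gene, ZAP1 (AT2G04880), has WRKY1 only among its synonyms and so fell outside the choice by symbol; it was added after its values were seen. It read 8.88, 8.84 and 8.79 in WT and 8.51, 8.52 and 8.62 in atrap. The groups did not overlap and the log2 difference was -0.29 ± 0.07 (± standard error, n = 3 per group; limma, adjusted p = 0.0439). That call was lost under both further scalings, at adjusted p values of 0.0553 with median centring and 0.0641 with quantile normalization by limma. It was lost without any 1 of the 6 arrays too, at adjusted p values from 0.0719 to 0.153.

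The members differed in their spread across WT arrays. The WT SD of WRKY53 was 1.23, at percentile 99.8 of all probe sets, and 36 of 22746 probe sets had a WT SD at least as large. WRKY6 and WRKY22 followed with WT SDs of 0.49 and 0.45, at percentiles 97.6 and 97.1. All 3 lay above the 95th percentile of WT SDs, which was 0.35, while the median probe set had 0.12. WRKY42, WRKY47 and WRKY20 had WT SDs of 0.16, 0.09 and 0.09, at percentiles 68.9, 36.7 and 33.7. These differences rest in part on WT replicate 3. Without it the WT SD was 0.93 for WRKY53, 0.31 for WRKY6, 0.25 for WRKY22 and 0.047 for WRKY42, and over the omission of each WT array that of WRKY53 ran from 0.81 to 1.74.

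In atrap the spread of WRKY53 and WRKY6 was much smaller. The SD of WRKY53 was 6.50 times larger in WT than in atrap, and that of WRKY6 was 4.43 times larger. In atrap WRKY53 read 4.74 to 5.12, below the array medians of 6.50 to 6.57. RMA compresses differences of dim probe sets, and the part of this in the small atrap SD of WRKY53 was not tested. WRKY22 varied in both genotypes, with SDs of 0.45 in WT and 0.39 in atrap. For WRKY20 the order was the opposite, 0.09 in WT and 0.17 in atrap. Over all probe sets the WT SD was the larger one in 56.8%. An SD from 3 arrays is itself uncertain, and the difference of spreads between genotypes was not tested.

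**Figure D3:**
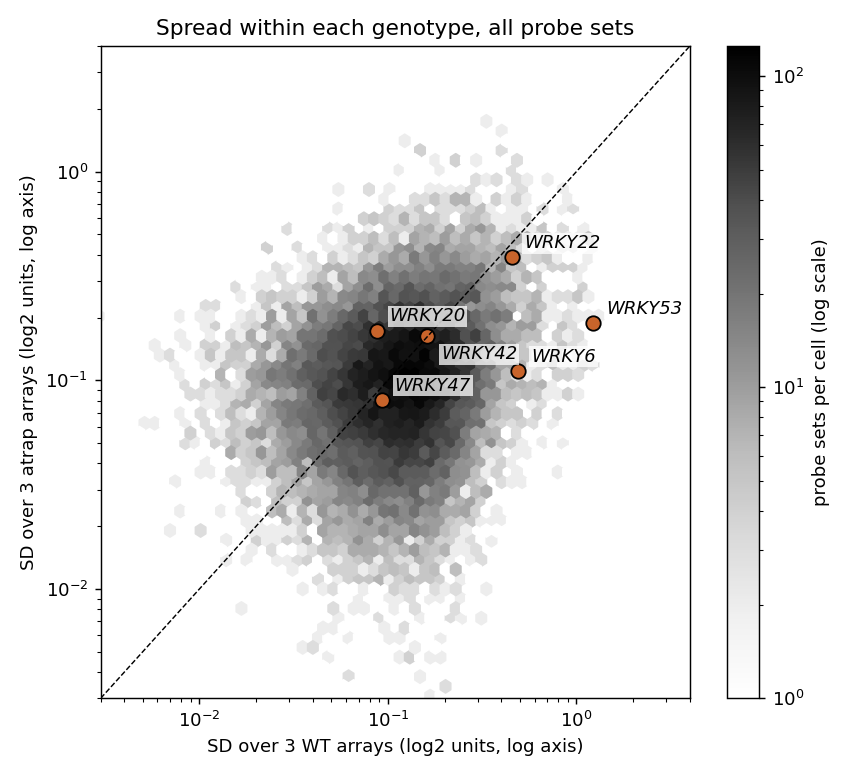
SD over the 3 atrap arrays against SD over the 3 WT arrays, in log2 units on log axes, with all probe sets as shaded cells, the 6 WRKY genes as points and the line of equal SD dashed. WRKY53 (1.23 in WT, 0.19 in atrap) and WRKY6 (0.49 and 0.11) lie far to the right of the line, WRKY22 lies close to it at high spread, and WRKY47 lies within the bulk.

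The spread had a shared pattern. WT replicate 3 was the highest and WT replicate 1 the lowest WT array for 4 of the 6 genes, WRKY53, WRKY6, WRKY22 and WRKY42, beside 15.6% of all probe sets. WT replicate 3 exceeded the mean of the other WT arrays by 1.80 for WRKY53, 0.77 for WRKY6, 0.72 for WRKY22 and 0.27 for WRKY42. For WRKY47 and WRKY20 the same difference was -0.12 and -0.05.

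Across the 6 arrays, with each genotype's mean removed, WRKY53 correlated at r = 0.93 with WRKY6, at 0.78 with WRKY22 and at 0.55 with WRKY42. Its correlations with WRKY47 and WRKY20 were -0.26 and -0.40. WRKY6 and WRKY42 correlated at 0.82. These values describe 6 arrays that all genes share, and for WRKY53 they rest largely on WT replicates 1 and 3, the arrays farthest from the WT mean.

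The genes whose pattern within genotypes was most like that of WRKY53 were sought among 933 probe sets of 1 gene with an SD of deviations of at least 0.25. The 5 with the highest correlation over the 6 arrays were AT4G36500, AT1G72900, AT3G02840, AT1G19020 and AT5G59450, at r from 0.990 to 0.997. AT4G36500 read 9.40, 10.08 and 10.62 in WT and 8.37, 8.23 and 8.18 in atrap. AT1G19020 read 7.54, 8.59 and 9.94 in WT and 6.41, 6.09 and 5.90 in atrap. Both had WT replicate 1 as the lowest and WT replicate 3 as the highest WT array, as WRKY53 did, with no overlap between genotypes.

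The choice by deviations did not use the difference between genotypes itself. However, likeness to WRKY53 favours a wide WT and a narrow atrap spread, and a wide WT spread went with lower atrap levels. Of 100 probe sets with a WT SD of at least 1, 12 were called lower and 1 higher. In 65 of them every atrap array lay below every WT array, beside 16.5% of all probe sets. The SD filter can also be passed through the WT spread, as by AT5G59450 with SDs of 0.44 in WT and 0.08 in atrap. The calls and the median differences among like genes are thus not independent of the choice. AT4G36500 and AT1G19020 fell, with log2 differences of -1.78 and -2.56 (limma, adjusted p = 0.0118 and 0.0248). AT1G72900, AT3G02840 and AT5G59450 had log2 differences of -1.09, -0.96 and -0.45 and did not pass (limma, adjusted p = 0.0645, 0.0855 and 0.193). All 3 passed without WT replicate 1 (limma, adjusted p = 0.0127, 0.00597 and 0.0281), and AT1G72900 and AT3G02840 also passed with array weights (0.0176 and 0.0171). WT replicate 1 was the lowest WT array of all 3 genes, as likeness to WRKY53 favours, so leaving it out raises their WT means. Without WT replicate 3 the log2 differences of the 3 genes were -0.72, -0.63 and -0.23. Of the 54 probe sets with a correlation of at least 0.95, 21 were called lower in atrap and 0 higher, which is 38.9% lower. Of the 879 below that correlation, 98 were called lower and 53 higher, which is 11.1% lower. Over the whole pool of 933 it was 12.8%, and over all 22746 probe sets 6.41%. The median log2 difference was -1.02 in the first set and -0.28 in the second. Without WT replicate 1, which the choice favours as the lowest WT array, the count of 21 was 50. It was 16 without WT replicate 3 and 13 without atrap replicate 2. It was 1 without atrap replicate 3 and 0 without WT replicate 2 or atrap replicate 1 by limma. At an unadjusted p of 0.05 these counts were 42, 43 and 46, in that order, and 48 with all arrays. Such counts were not made for the 879. Among the 879 the 98 became 189 without WT replicate 1, 68 without WT replicate 3 and 114 without atrap replicate 2, or 21.5%, 7.74% and 13.0% against 92.6%, 29.6% and 24.1% of the 54. Without atrap replicate 3 the shares were alike, 1.85% of the 54 and 1.82% of the 879. Without WT replicate 2 or atrap replicate 1 they were 0% of the 54 against 1.14% and 1.02% of the 879. Over all probe sets the calls were then 438 and 350, and 629 without atrap replicate 3, instead of 2981. These are too few to compare the sets. The contrast in adjusted calls was thus seen only with some arrays kept, and for the other omissions the adjusted calls cannot decide. AT4G36500 and AT1G19020 lost their calls without WT replicate 2, atrap replicate 1 or atrap replicate 3. Genes that share arrays are not independent, and these shares are a description.

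**Figure D4:**
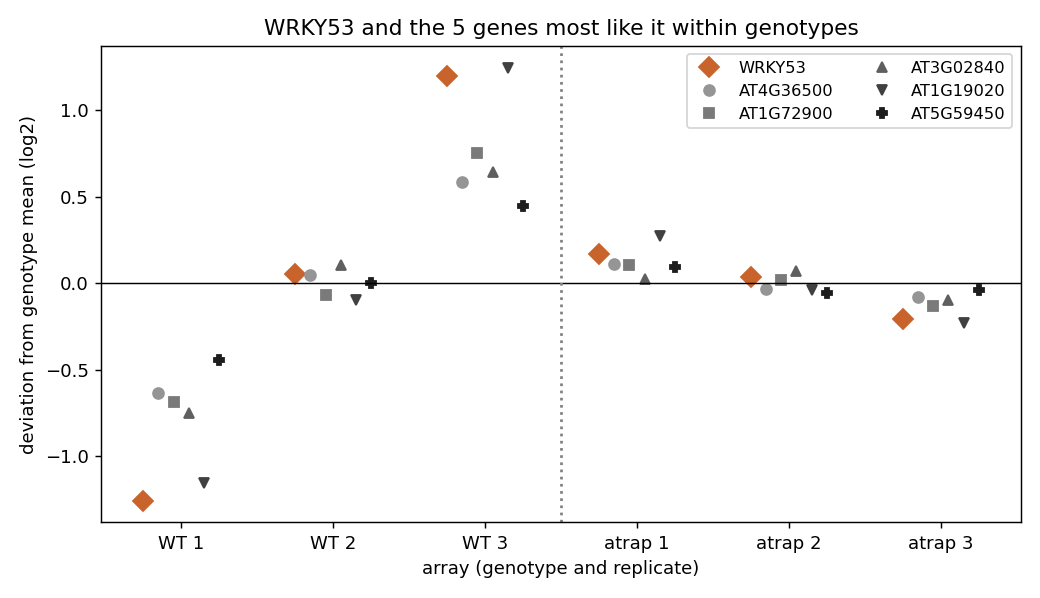
Deviation from the genotype mean (log2) in each array for WRKY53 and the 5 genes whose deviations correlated best with it. All 6 genes lie lowest in WT replicate 1 and highest in WT replicate 3, while the atrap arrays lie near 0.

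WRKY47 varied little within genotypes, so likeness to it means less. The 5 genes nearest to it were AT2G40530, AT1G05840, AT2G37950, AT5G14410 and AT4G04630, at r from 0.893 to 0.982. AT2G40530 fell by 0.88 on the log2 scale (limma, adjusted p = 0.0304), with 5.99, 6.52 and 5.85 in WT and 5.21, 5.0 and 5.50 in atrap. That call held without WT replicate 1 or 3 and was lost without each of the other 4 arrays. The remaining 4 genes did not pass, with log2 differences from -0.57 to 0.27. No gene stood on both lists.

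Few genes of the lists around WRKY53 were paired with a probe set of 1 gene. The array's gene table lists no gene for 8730 probe sets, so unpaired genes may still have probes on the array. Of 8 regulators and partners of WRKY53, such as REV and MEKK1, and of 19 genes of salicylic acid defence, 0 were analysed here. Of 16 leaf senescence genes 2 were measured, and 0 passed by limma (1 at an unadjusted p of 0.05). SAG101, a senescence gene whose product also acts in immunity with EDS1, read 4.55, 5.06 and 5.58 in WT and 4.19, 4.40 and 4.37 in atrap. Its groups did not overlap and WT replicate 3 was again highest, but with a log2 difference of -0.75 it did not pass (limma, adjusted p = 0.0785). EIN3, a transcription factor of ethylene signalling that promotes senescence, had a log2 difference of -0.21 (limma, adjusted p = 0.173).

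BIK1, a kinase of immune receptor complexes and the 1 measured gene of 19 immune receptors, MAP kinases and VQ proteins, had a log2 difference of -0.06 (limma, adjusted p = 0.861).

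Genes of the rapid response to touch, wounding and stress were highest among WT arrays in WT replicate 3, as WRKY53 was, in 5 of 5 measured, beside 28.7% of all probe sets. The list has 23 genes, and the mean level of the 5 was 6.39, 6.62 and 7.65 in WT and 6.31, 6.55 and 6.24 in atrap. WT replicate 3 stood above the other 5 arrays. CML38, a calmodulin-like protein gene induced by wounding, reached 7.58 there, while WT replicates 1 and 2 gave 4.97 and 5.16 and the atrap arrays 4.40 to 4.69. PUB24, a ubiquitin ligase gene that dampens immune responses, was the 1 gene of the 5 that passed, with a fall of 0.88 on the log2 scale (limma, adjusted p = 0.0480). It lost the call under both further scalings, at adjusted p values of 0.0550 with median centring and 0.0576 with quantile normalization, and without WT replicate 2 or 3 or atrap replicate 1 or 3 (0.114 to 0.149).

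The part of the rapid response in the WRKY53 result was not tested. Without WT replicate 3 the log2 differences of WRKY53 and WRKY22 were -1.94 and -0.14, against -2.54 and -0.38 with all arrays. This omission cannot separate the rapid response from the genotype, since WRKY53 also differed between WT replicates 1 and 2, at 6.23 and 7.54.

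Markers of other cell types were sparsely measured. The root hair genes EXPA7 and EXPA18, 2 of 2 listed, averaged 5.47 to 5.57 in WT and 5.59 to 5.64 in atrap, and neither passed. These genes went opposite ways, with log2 differences of 0.24 and -0.05 (limma, adjusted p = 0.102 and 0.765). The guard cell gene FAMA, 1 of 4 listed, read 6.85 to 7.11 in WT and 7.10 to 7.17 in atrap. TRY, 1 of 3 trichome genes listed, fell by 0.45 on the log2 scale (limma, adjusted p = 0.0435), but not past the threshold with median centring or quantile normalization (adjusted p = 0.0522 and 0.0521) nor without any 1 array other than WT replicate 3 (0.0799 to 0.134). Its part in the WRKY results was not tested.

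**Figure D5:**
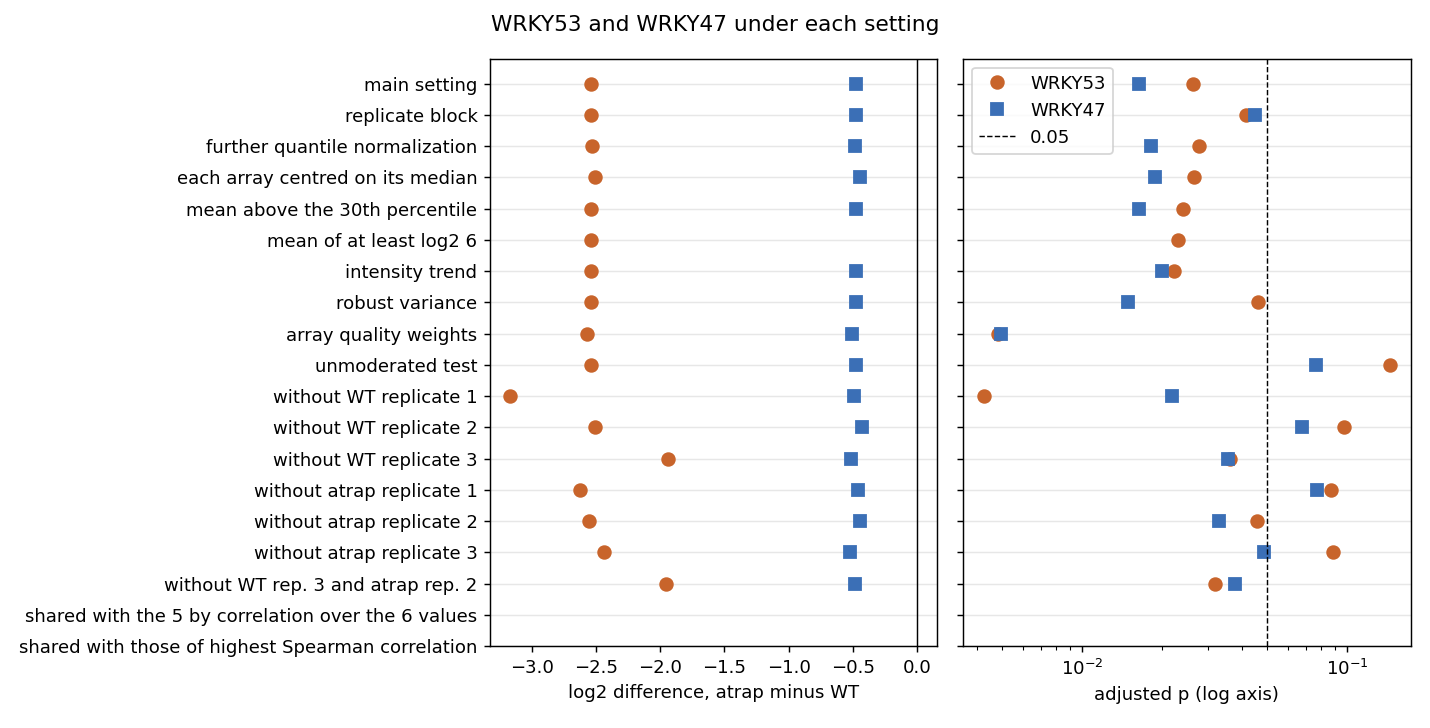
Log2 difference (left) and adjusted p on a log axis (right) of WRKY53 and WRKY47 under the main setting and each alternative, with a dashed line at 0.05. Both genes lie below 0 in every setting shown, WRKY53 between -3.16 and -1.94 and WRKY47 between -0.52 and -0.43, and adjusted p values cross 0.05 with the unmoderated test and when some arrays are left out; WRKY47 has no value where probe sets under log2 6 were removed.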

How the data were processed

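The deposited table holds log2 expression values per probe set, made by the authors with RMA, as the submitters' processing notes state. No source used here names the software or its probe set definition. That the scale is log2 follows from the range of the values. Because RMA equalises arrays, it hides a shift common to all transcripts, and it compresses differences of dim probe sets.

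Groups came from the sample titles. After 64 control probe sets were left out, 22746 entered a two-sided limma test (limma 3.58.1, R 4.3.3, lmFit with eBayes). P-values were adjusted over all of them by Benjamini-Hochberg, with a threshold of 0.05 and no filter. Gene names came from the array's gene table, which pairs 13513 probe sets with 1 gene and 503 with several, and lists no gene for 8730. They were updated by gene identifier through the TAIR10.1 table, which held 13436 of the 13513. The names of all 6 WRKY probe sets lack the suffix for probes that match several genes. Cross-hybridisation was not tested.

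The members and gene lists were chosen with earlier results of these data known. Named were all 6 WRKY genes, the 5 genes most correlated with WRKY53 and with WRKY47 over deviations from genotype means, and from each list up to 4 members past the threshold, or up to 2 with the smallest p. CML38, ZAT10, PUB22, PUB23, ZAP1 and RAP fall outside this rule. The scripts were tested on simulated data. Summaries and exact permutation tests used Python 3.11.15, numpy 2.4.6 and pandas 2.3.3, and figures matplotlib 3.10.9. Alternatives were a replicate block, 2 further scalings, 2 dim filters, robust variance, an intensity trend, an unmoderated test, array weights and leaving out arrays.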

Additional observations from a re-analysis of the deposited data

How the results depend on the processing

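WRKY53 and WRKY47 kept a log2 difference below 0 in every alternative that tested them. The count of 2 WRKY genes called was 1 with probe sets under log2 6 removed, where 3 of the 6 genes were tested, and 0 with the unmoderated test (2 at an unadjusted p of 0.05), in which WRKY53 and WRKY47 had adjusted p values of 0.145 and 0.0766. Leaving out 1 array gave 0 to 3 calls by limma, with 0 without WT replicate 2 and without atrap replicate 1 (2 at an unadjusted p of 0.05 in each) and 1 without atrap replicate 3. The median log2 difference of the 6 genes ran from -0.54 to -0.18 when 1 array was left out, with -0.18 without WT replicate 3. It was -0.11 without both WT replicate 3 and atrap replicate 2, an alternative chosen after seeing the data, in which 2 genes were called. There WRKY22 turned to 0.057 and had -0.59 without WT replicate 1 as its lowest value. WRKY42 turned to -0.0089 with quantile normalization, -0.026 without WT replicate 1 and -0.058 without atrap replicate 3, and had 0.18 without both arrays as its highest value. Over all probe sets the 2981 calls became 5325 with array weights and 48 with the unmoderated test, and 350 to 3863 when 1 array was left out. The omission of WT replicate 2 gave 438, of WT replicate 3 1260, of atrap replicate 1 350 and of atrap replicate 3 629. The fixed lists other than the cell type markers, with 1 call among 8 measured genes, had 0 to 2 when 1 array was left out, 0 without WT replicate 2 or 3 or atrap replicate 1 or 3 (2 to 4 at an unadjusted p of 0.05). The drop in genes tested follows from the log2 6 filter, and for the rest the cause was not tested. Of the 5 genes most like WRKY53, 1 was shared with the 5 by correlation over the values themselves and 1 with the 4 of highest Spearman correlation. For WRKY47 these were 1 and 0.

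With the replicate block, 2101 probe sets were called, 1931 of them among the 2981, and WRKY53 and WRKY47 passed at adjusted p values of 0.0417 and 0.0451, while ZAP1, TRY and AT2G40530 did not pass. The correlation of deviations between arrays of the same number was 0.13, 0.02 and -0.15. Arrays of different number were not correlated for reference, so these values cannot decide whether the numbers mark pairs.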
